A study of Rangifer tarandus with 8 samples.

Results

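A head-to-head pair is a pair of genes on opposite strands whose starts face each other, so that transcription runs outward from a short stretch between them. The pairs described here were found by position in the cattle gene annotation (assembly ARS-UCD1.2) deposited with the study, which names the genes near its open chromatin. A pair was taken where both records were protein coding and carried a symbol, where the 2 gene bodies shared no base, and where their starts, the outermost annotated 5' ends, lay at most 1 kb apart. Collagen, keratin, chemokine and WNT names were left out. This gave 552 pairs, made of 1100 genes among 17452 named protein coding genes after the same exclusions, or 6.30%. The other 16352 named coding genes serve as the comparison below.

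The series itself profiled open chromatin in single cells of adult reindeer (Rangifer tarandus) skin by ATAC-seq, in which a transposase cuts accessible DNA. Its 8 libraries came from velvet, the skin over the growing antler, and from back skin, each unwounded (day 0) or 7 days after a full-thickness excision of 12 mm, and from velvet grafted to the back and taken 6 weeks (2 animals), 3 months or 6 months later. Labels gave 1006 to 20002 recovered cells per library. Accessibility values per library were not analysed here, so no condition is compared, no tissue marker could be checked, and every value below describes the annotation and not reindeer skin. The annotation is a complete list, so its counts carry no sampling error, and no test was made; genes of a pair share a locus and are not independent.

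Divergent pairs of this kind are common in mammalian genomes. The stretch between the starts often works as a bidirectional promoter, often rich in CpG and without a TATA box, which assembles the transcription machinery in both directions. Such pairs are known for housekeeping roles such as DNA repair, mitochondrial function and RNA processing. In an open chromatin assay a promoter of this kind is normally a single accessible region, and its fragments cannot be assigned to one partner by position alone. The annotation holds gene starts, so nothing below measures promoter activity, and no sequence of these regions was analysed here.

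Starts of the pairs lay close together, well inside the limit that defined them. Distances ran from 3 to 993 bases, with a median of 201.5 bases and quartiles at 107 and 432. By intervals of 100 bases, 129 pairs lay within the first 100 bases, 147 at 101 to 200 bases, 77 at 201 to 300 bases and 12 at 901 to 1000 bases. Thus 276 of 552 pairs (50%) had starts at most 200 bases apart, and 442 (80.1%) at most 500 bases apart. The limit itself is part of the rule, so the shape of the distribution is best seen beyond it. Under the same rule with a wider limit, the next 9 intervals of 1 kb each held 74 to 130 pairs, with a mean of 93.3, so the first kilobase held 5.91 times that mean.

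**Figure D1:**
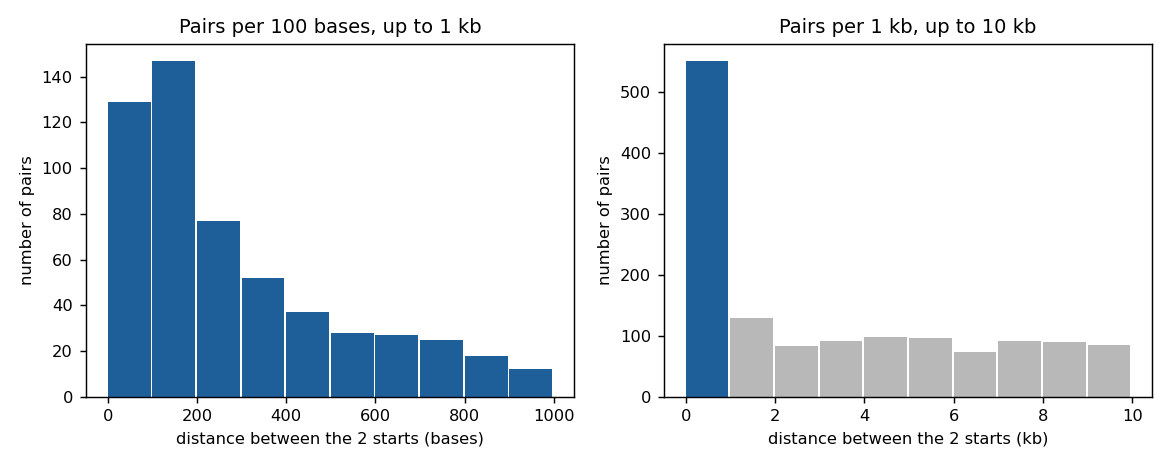
Left, number of head-to-head pairs (vertical axis) per 100 bases of distance between the starts (horizontal axis, bases); right, the same per 1 kb up to 10 kb, with the 552 pairs of the first kilobase in blue and pairs beyond the limit in grey. The count peaks at 147 pairs for 101 to 200 bases, and each interval beyond 1 kb holds 74 to 130 pairs.

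At the near end, RPAIN (a carrier that brings replication protein A into the nucleus) and NUP88 (a nuclear pore protein) on chromosome 19 started 3 bases apart, the minus strand start at 26128006 and the plus strand start at 26128009. CCDC13, a coiled-coil protein gene, and ACKR2, a decoy receptor for inflammatory chemokines, started 7 bases apart. So did TRIP13, a meiotic and spindle checkpoint ATPase gene, and BRD9, a bromodomain subunit gene of a chromatin remodeller. A distance of exactly 21 bases recurred, as in AAMDC/RSF1, AFMID/TK1, UROS/BCCIP, WDR53/FBXO45 and several pairs named below as nearest in their group. In each pair just named by symbol, a partner (RSF1, AFMID, BCCIP or FBXO45) had no annotated 5' UTR, the stretch before the coding sequence. Other pairs at 21 bases, such as PAF1/MED29 and TMEM68/TGS1, had a 5' UTR in both genes. Why this distance recurs was not tested. Just inside the limit lay FBXW5/C8G on chromosome 11 at 975 bases, TULP2/NUCB1 on chromosome 18 at 991 and TMEM104/NAT9 on chromosome 19 at 993. Just outside lay KCTD9/CDCA2 on chromosome 8 at 1013 bases, ANKRD27/RGS9BP on chromosome 18 at 1017 and CCT7/PRADC1 on chromosome 11 at 1022. No gap in the distances separated pairs inside the limit from those outside it.

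Other named coding genes rarely had a divergent coding neighbour close by that did not overlap them. Genes with a named neighbour of this kind within 1 kb had been taken out by the rule, which lowers the counts that follow. Counting coding partners with or without a symbol, 320 of 16352 (1.96%) had one with its start at most 2 kb away, 1728 (10.6%) within 10 kb and 6432 (39.3%) within 50 kb, and the median distance was 76.2 kb. Within 1 kb, 35 of them had such a partner that carried no symbol. Among all protein coding records there were 599 pairs, so 47 pairs were left out because at least 1 partner had no symbol; the excluded family names removed none. A further 187 pairs of named genes had starts at most 1 kb apart but overlapping 5' ends, by a median of 333 bases, and stand outside the rule. Their genes belong to the other genes unless they are also in a head-to-head pair. Overlapping partners do not enter the counts above.

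For neighbours less than 1 kb apart in other orientations, counts were lower than for head-to-head pairs. Between gene bodies at most 1 kb apart and without overlap, 499 pairs of named coding genes were tail-to-tail and 366 lay on the same strand, beside the 552 head-to-head pairs. Same-strand neighbours can arise with either strand, and they were still the fewest.

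Genes of head-to-head pairs were shorter than other named coding genes, with fewer very long gene bodies. Their gene bodies had a median length of 14.2 kb (quartiles 5.99 and 33.8 kb, n = 1100) against 19.9 kb (6.68 and 56.1 kb, n = 16352). Shares differed more above 100 kb than below 5 kb. Bodies over 100 kb made up 6.73% of head-to-head genes (74 of 1100) and 14.1% of the others (2311 of 16352), whereas bodies under 5 kb made up 19.9% and 20.4%. Narrower bands of short genes differed in both directions. From 0.562 to 1 kb the shares were 0.909% and 5.63%, and from 3.16 to 5.62 kb they were 12.7% and 7.86%. Among genes with 2 or more exons the medians were 14.9 and 23.6 kb. With olfactory receptor names left out they were 14.2 and 22.2 kb. The direction depended on the comparison group. Against other genes that also had a divergent coding neighbour within 10 kb, whose median was 11.7 kb, head-to-head genes were 1.21 times as long. With unnamed genes allowed on both sides the medians were 13.9 and 14.1 kb.

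Exon number hardly differed. The median was 8 exons in both sets, counted in the transcript with most exons, and the means were 10.1 and 10.4. The spread was narrower in head-to-head genes, with quartiles of 5 and 13 against 4 and 14. Single-exon genes made up 3.36% of head-to-head genes (37 of 1100) and 8.35% of the others (1365 of 16352), and genes with 21 or more exons 7.64% and 11.7%. Olfactory receptor names, which belong to a very large family of mostly single-exon genes, made up 904 of the others (5.53%) and none of the head-to-head genes. With these names left out, mean exon numbers were 10.1 in head-to-head genes and 10.9 in the others. Gene body per exon, a rough measure of intron size, had a median of 1736 bases in head-to-head genes and 2349 in the others. Coding length was also shorter, with medians of 1155 and 1299 bases. With unnamed genes allowed, the order of the exon means turned, at 9.89 for head-to-head genes and 9.06 for the rest.

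Annotated start sites were as many in head-to-head genes as elsewhere. The mean number of distinct transcript starts was 1.474 per gene against 1.504, and 65% of head-to-head genes (715 of 1100) had a single start against 65.9% of the others. With unnamed genes allowed the order of the means turned here too, at 1.47 and 1.42. Where a gene had 2 or more starts, they were closer together in head-to-head genes, with a median span of 1567 bases (n = 385) against 3596 bases (n = 5571). The rule bears on this span, since a gene whose outermost start reached past that of its partner fell out of the pairs. Head-to-head genes were also shorter. How much of the difference in span comes from either was not tested. Head-to-head genes carried an annotated 5' UTR in 86.5% of cases and a 3' UTR in 88.2%, the other genes in 76.3% and 75.3%.

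**Figure D2:**
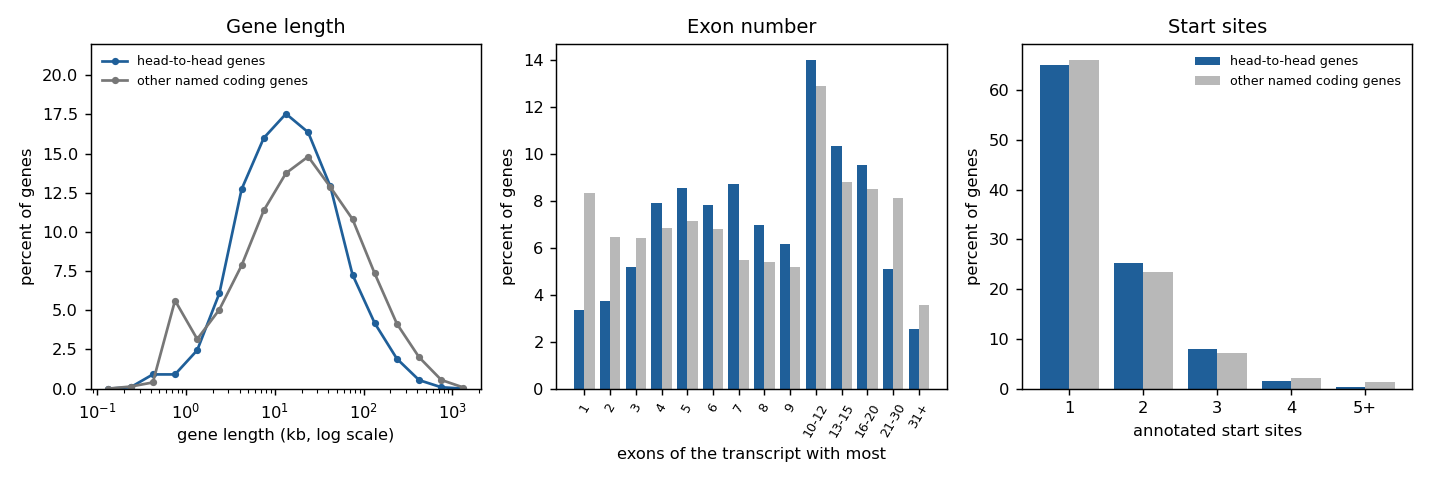
Percent of genes (vertical axes) by gene length in kb on a log scale, by exon number and by number of annotated start sites, for the 1100 head-to-head genes (blue) and 16352 other named coding genes (grey). Head-to-head genes are fewer above 100 kb (6.73% against 14.1%) and at 1 exon (3.36% against 8.35%), while start sites fall alike.

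Pairs with less complete 5' ends had longer median distances. In 421 pairs (76.3%) both genes had a 5' UTR, and their median distance was 178 bases (quartiles 101 and 359). In 112 pairs 1 gene had none, and the median was 264.5 bases. In 19 pairs neither had one, so that both genes begin with coding sequence in the annotation, and the median was 572 bases. Of the 129 pairs with starts at most 100 bases apart, 80.6% had both 5' UTRs, and 85.0% of those at 101 to 200 bases. The share was 76.5% at 201 to 500 bases and 59.1% for the 110 pairs at 501 to 1000 bases, so it fell only beyond 200 bases. What part of the longer distances comes from missing 5' ends was not tested. Gene length fell and rose again along the same bands, with medians of 17.6 kb up to 100 bases, 15.9 kb at 101 to 200, 10.4 kb at 201 to 500 and 13.9 kb at 501 to 1000 bases. Mean exon number stayed between 9.59 and 10.5.

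The start of a gene was its outermost 5' end, so any alternative start lies further from the partner by construction. Only the size of the shift is described here. Both partners had a single start in 229 pairs (41.5%), exactly 1 partner had several in 260 pairs (47.1%), and both had several in 63 (11.4%). Of the 323 pairs with several starts, 117 (36.2%) kept all combinations of starts within 1 kb. In the others, at least 1 combination of starts was more than 1 kb apart. PHKB, a regulatory subunit gene of phosphorylase kinase paired with ITFG1, had the most starts of any member, 9.

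Partners resembled each other somewhat in length but not in exon number. The longer gene was a median of 2.60 times as long as the shorter, under 2 times in 206 pairs (37.3%) and at least 10 times in 63 (11.4%). Across the 552 pairs the log2 lengths had a Pearson r of 0.33 and a Spearman rho of 0.32; partners share a locus and its gene density, and these are descriptions only. For exon number the values were -0.05 and -0.08. The largest contrast was SUGCT, a glutarate CoA-transferase gene and the longest member at 769.8 kb (ENSBTAG00000032121, chromosome 4, 80159127 to 80928936). Its partner MPLKIP, 326 bases away, was 2.15 kb long, a ratio of 358. The shortest member was NCBP2AS2 at 0.3 kb (ENSBTAG00000048390, chromosome 1, 71410763 to 71411062), a single-exon gene beside the cap-binding protein gene NCBP2.

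**Figure D3:**
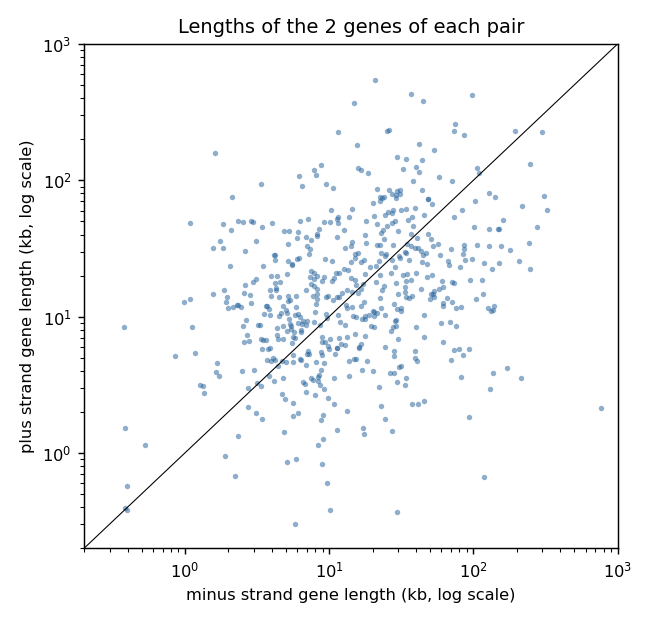
Length of the plus strand gene against that of the minus strand gene for each of the 552 pairs (points; both axes in kb, log scale; the line marks equal lengths). Points scatter widely around the line, with a median ratio of 2.60 between longer and shorter gene, and SUGCT/MPLKIP lies far to the lower right.

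Divergent pairs long known from human and mouse served as a check of how this annotation places them. Of 18 such pairs, 11 met the rule, 4 had overlapping bodies and 3 had starts over 1 kb apart.

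Several of these pairs hold genes of DNA replication, repair or chromatin. PRKDC, the catalytic subunit gene of the DNA-dependent protein kinase of end joining (chromosome 14, 19424288 to 19551028), had 86 exons, the most of any member. It started 573 bases from MCM4, a subunit gene of the replicative helicase (19551601 to 19563221). FEN1, the flap endonuclease gene of lagging-strand synthesis, started 264 bases from TMEM258 on chromosome 29. GNL3, the nucleostemin gene, and PBRM1, a chromatin remodelling subunit gene, started 254 bases apart on chromosome 22.

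Other members of this set serve translation, mitochondria and antigen processing. HARS1 and HARS2, the cytosolic and mitochondrial histidyl-tRNA synthetase genes, lay 42 bases apart on chromosome 7 (51803863 to 51817052 and 51817094 to 51824132) with 13 exons each. SARS2, the mitochondrial seryl-tRNA synthetase gene, and MRPS12, a mitochondrial ribosomal protein gene, lay 188 bases apart on chromosome 18. SURF1, a cytochrome oxidase assembly factor gene, and SURF2 lay 45 bases apart on chromosome 11, with lengths of 3.80 and 3.64 kb. SIRT3, the mitochondrial deacetylase gene, and PSMD13, a proteasome lid subunit gene, lay 204 bases apart on the same chromosome. TAP1, the peptide transporter gene of antigen presentation, and PSMB9, an immunoproteasome subunit gene, lay 257 bases apart on chromosome 23. The widest was PDCD10/SERPINI1 at 826 bases on chromosome 1, which joins a vascular malformation gene with the neuroserpin gene.

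Pairs that missed the rule were still divergent. CRYAB and HSPB2, small heat shock protein genes, overlapped by 13 bases on chromosome 15. HSPD1 and HSPE1, which encode the mitochondrial chaperonin and its co-chaperonin, overlapped by 959 bases, although their nearest annotated starts were 153 bases apart. For the purine synthesis genes PPAT and PAICS the overlap was 25093 bases and the nearest starts were 116 bases apart. For HSPD1/HSPE1 and PPAT/PAICS, outer alternative starts took the pair out of the rule. BRCA1 and NBR1 started 1326 bases apart. NPAT and ATM, the histone gene coactivator and the DNA damage kinase, started 10.8 kb apart here.

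**Figure D4:**
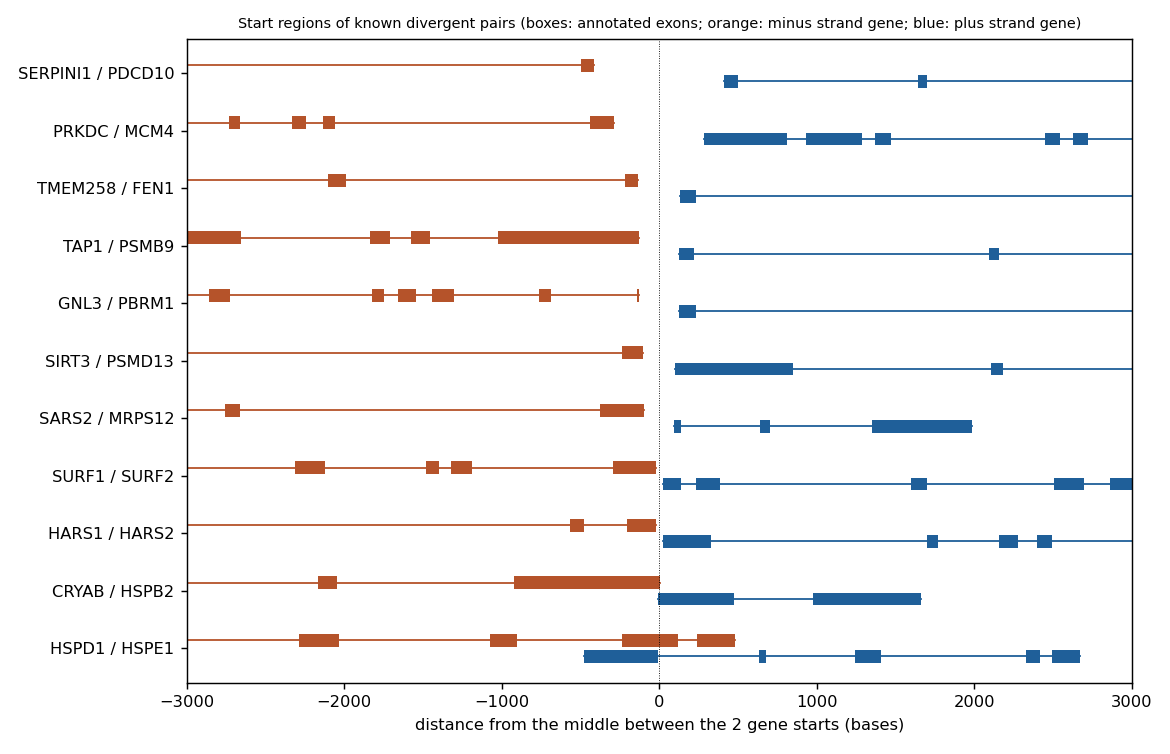
Annotated exons (boxes) and gene bodies (lines) within 3000 bases of the middle between the starts, for 9 of the 11 known divergent pairs that met the rule and 2 of the 4 with overlapping bodies; minus strand genes in orange, plus strand genes in blue, horizontal axis in bases. Starts are 42 bases apart for HARS1/HARS2 and 826 for PDCD10/SERPINI1, and the bodies of HSPD1/HSPE1 overlap by 959 bases.

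By function, head-to-head genes had their highest shares among histones and genes for DNA repair, mitochondria and the transcription machinery. With a limit of 500 bases, the share of all named coding genes was 5.05%. Histones stayed highest (20.9%), but the order below them changed. Respiratory chain genes (17.8%) and the transcription machinery (15.4%) came next. Aminoacyl-tRNA synthetases (13.5%) then stood beside DNA replication and repair (13.4%), the mitochondrial ribosome (12.99%) and mitochondrial import (12.9%). With the 1 kb limit, 12 of 20 groups of genes had a share above the 6.30% of all named coding genes. The other 8 had a lower one, and 4 of those had no member. The groups were chosen with knowledge of such pairs and of earlier results on these data, so the order of the shares is a description and not independent support. Most groups were taken by symbol pattern, the others as lists of symbols. A pattern can take in genes of other function and miss genes with other names.

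Histone genes had the highest share, 14 of 67 (20.9%), and formed 7 pairs in which both partners were histones. Each joined an H2A gene with an H2B gene, whose products form the dimers added to the nucleosome core. On chromosome 23 lay H2BC15/H2AC17 at 228 bases, H2AC12/H2BC12 at 276, H2AC6/H2BC4 at 280, H2AC8/H2BC8 at 281, H2AC11/H2BC11 at 322 and H2BC7/H2AC7 at 323. The remaining pair, H2BU1/H2AW, lay on chromosome 7 at 263 bases. The 7 distances span 228 to 323 bases, inside the quartiles of all pairs at 107 and 432 bases. Histone genes also made up 10 of the 37 single-exon members. Copies of these genes are near-identical, so short reads can be hard to place on one of them.

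DNA replication and repair genes had 26 members among 134 found (19.4%), in 25 pairs with a median distance of 266 bases. In 2 pairs, PRKDC/MCM4 among them, both partners were on the list. Single partners covered many repair routes. PXMP2/POLE, with the catalytic subunit gene of DNA polymerase epsilon, lay 52 bases apart. FANCD2, the central Fanconi anaemia gene, lay 88 bases from EMC3, and PALB2, the bridge between BRCA1 and BRCA2, lay 158 bases from DCTN5. MRE11, the nuclease that processes broken ends, lay 148 bases from ANKRD49, and XRCC4, the ligase partner of end joining, lay 134 bases from TMEM167A. WRN, a helicase gene, lay 594 bases from PURG. The members of this list were of ordinary length, with a median of 30.99 kb against 28.3 kb for the rest of the list.

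Mitochondrial genes were spread over 3 groups with like shares. Among respiratory chain genes 20 of 107 (18.7%) were members, with a median distance of 149.5 bases, and no pair joined members of the group with each other. The nearest were NDUFA13, a complex I subunit gene, with the testis kinase gene TSSK6 at 21 bases and SDHAF2, an assembly factor gene of complex II, with CPSF7 at 24 bases. Mitochondrial ribosomal proteins had 14 of 77 (18.2%), the nearest being MRPL27 with EME1, a subunit gene of a junction-cutting nuclease, at 36 bases. Import and chaperone genes had 6 of 31 (19.4%), with TIMM10B/ARFIP2 nearest at 67 bases. Members of the ribosomal and import groups were short, with medians of 4.90 and 2.89 kb against 8.16 and 10.4 kb for the rest of each group. In the respiratory chain it was the other way, at 8.59 against 6.73 kb.

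Genes of the transcription machinery, meaning RNA polymerase subunits, Mediator and basal factors, had 19 of 104 members (18.3%), with a median distance of 170 bases. MED31, a Mediator subunit gene, lay 15 bases from C17orf100, and MED29 lay 21 bases from PAF1, an elongation factor gene. Splicing and RNA processing genes had 19 of 136 (13.97%) with a median of 124 bases, and the nearest was EXOSC5, an RNA exosome subunit gene, at 15 bases from BCKDHA. Proteasome genes had 7 of 48 (14.6%), the nearest being PSMA7 with SS18L1 at 111 bases. Aminoacyl-tRNA synthetases had 5 of 37 (13.5%), among them the HARS1/HARS2 pair. Cytosolic ribosomal proteins had 10 of 79 (12.7%), and RPS18 lay 78 bases from VPS52, a vesicle tethering gene. For each of these 5 groups, members were shorter than the rest of the group by median, from 3.38 against 3.90 kb in the cytosolic ribosome to 8.53 against 20.1 kb in the transcription machinery.

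Genes taken as cilium and centrosome genes by name stems such as CEP, IFT and TTC had a share of 10.2% (14 of 137). Among these, PIGP/TTC3 was the nearest at 79 bases. Centrosome genes with other names, such as TUBGCP2 at 21 bases from ZNF511, were not counted. Genes named TMEM, a label for transmembrane proteins of varied function, had 21 of 224 (9.38%), with TMEM68/TGS1 nearest at 21 bases. Solute carriers lay below the share of all genes, with 14 of 358 (3.91%), the nearest being SLC26A11/SGSH at 39 bases. Genes taken by name as C2H2 zinc finger genes had 6 of 288 (2.08%), all 6 with ZNF names. IRGQ/ZNF576 and ZNF511/TUBGCP2 both lay at 21 bases. C2H2 genes with other names, such as ZBTB49 at 23 bases from LYAR, were not counted, so this is not the share of the family. Receptors coupled to G proteins with GPR, ADR, HTR, CHRM or OR names had 1 of 1002 (0.0998%), GPR22 at 654 bases from COG5. Olfactory receptors make up most of that list, and receptors of this kind with other names were not counted.

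Lists of matrix, inflammatory, early response and HOX genes held 1 member in all. Of 54 fibroblast and scar matrix genes, 1 was a member (1.85%): PLOD3, a lysyl hydroxylase gene of collagen maturation, at 585 bases from ZNHIT1 on chromosome 25. None of 25 inflammatory mediator genes, 18 AP-1 and early response genes, 51 interleukin and interferon genes or 39 HOX genes was in a head-to-head pair of named genes. These lists are short: at the 6.30% of all named genes, the AP-1 list would hold 1.13 members, the inflammatory list 1.58, the HOX list 2.46, the interleukin list 3.21 and the matrix list 3.40. Were each list a draw from a wider set, a count of 0 would allow a share of up to 16.7%, 12.0%, 7.69% and 5.88% for the AP-1, inflammatory, HOX and interleukin lists (3 counts of the total). Only the last lies under the share of all genes.

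**Figure D5:**
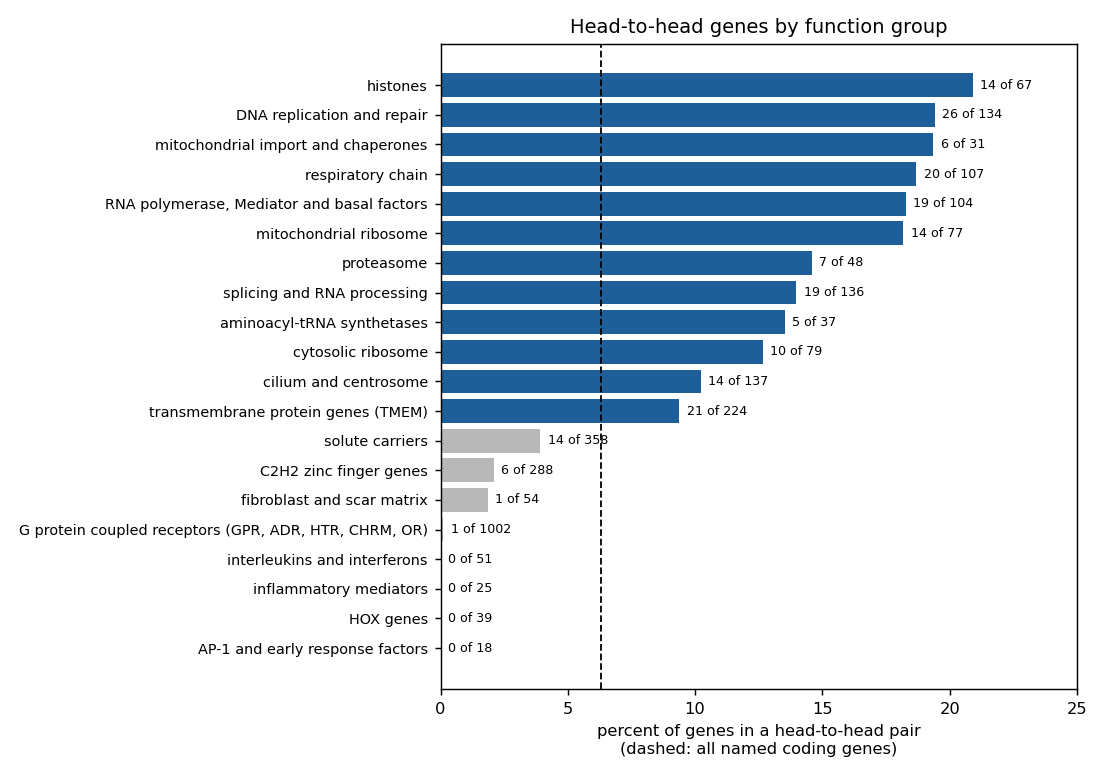
Percent of each group's genes that are in a head-to-head pair (horizontal axis), with members and genes found beside each bar; the dashed line is the 6.30% of all named coding genes and bars above it are blue. Histones lead at 20.9%, and the inflammatory, early response, interleukin and HOX groups are at 0.

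Listed genes were paired both within a list and across lists. Both partners were on some list in 23 pairs, and in 10 of these they were on the same list, among them the 7 histone pairs, PRKDC/MCM4 and HARS1/HARS2. The other 13 crossed lists. TIMM8B/SDHD joined an import chaperone with a complex II subunit at 128 bases, NDUFA7/RPS28 a complex I subunit with a cytosolic ribosomal protein at 136 bases, and MED22/RPL7A a Mediator subunit with a ribosomal protein at 158 bases. NDUFAF2/ERCC8 joined a complex I assembly factor with a gene of transcription-coupled repair at 158 bases, and MRPL32/PSMA2 a mitochondrial ribosomal protein with a proteasome subunit at 210 bases. Across all pairs, 5 had names alike up to a closing number, with or without a letter after it: HARS1/HARS2, SURF1/SURF2, HSPA1A/HSPA1L (435 bases), S100A1/S100A13 (774 bases) and ZBTB25/ZBTB1 (789 bases). HADHB/HADHA, the subunit genes of the mitochondrial trifunctional protein of fatty acid oxidation, differed in the closing letter (318 bases, chromosome 11).

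For scoring accessibility per gene, these pairs share most of their upstream sequence. Signac by default adds up the fragments over a gene body and 2 kb upstream of it. With starts at most 1 kb apart, windows of this kind must overlap, so the overlap itself follows from the rule. Its extent was a median of 3772.5 bases per pair, and a median of 22.5% of a member's window lay inside that of its partner (quartiles 10.0% and 44.6%). In 231 of 1104 windows, with a gene in 2 pairs counted in each, the shared share was over 50%. In 39 pairs (7.07%) the whole window of 1 gene lay inside the partner's. Among these were H2BC4 with H2AC6 and NCBP2AS2 with NCBP2. Windows were drawn here with no limit on gene length. At the other end, 0.476% of the window of SUGCT was shared with MPLKIP, while 88.6% of the window of MPLKIP was shared with SUGCT. With no upstream part the windows share nothing, and with 5 kb the median was 46.3%.

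Of the 1100 genes, 4 were in 2 pairs. RAD17, a checkpoint clamp loader gene on chromosome 20 (10341517 to 10375453), faced AK6 at 193 bases and TAF9 at 412 bases. BRCC3, a deubiquitinase gene of the BRCA1-A complex on the X chromosome (35888645 to 35964229), faced CMC4 and MTCP1, which share a start 284 bases away. CCDC173 on chromosome 2 faced PHOSPHO2 at 228 and KLHL23 at 936 bases. TRIM23, named in addition to the 3 chosen by rule, faced TRAPPC13 at 451 and SHLD3 at 680 bases.

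Along the genome, pairs were found on all 29 autosomes and on X, from 6 on chromosomes 9 and 24 to 47 on chromosome 19. As a share of named coding genes, members ran from 3.13% on chromosome 9 and 3.91% on chromosome 4 to 9.35% on chromosome 17 and 9.51% on chromosome 19. X had 13 pairs and a share of 4.43%. The single pair elsewhere was ND6/CYTB of the mitochondrial genome, 74 bases apart with a transfer RNA gene between them; mitochondrial genes are transcribed from strand-long units, so this pair fits the rule by position only. A microRNA gene, bta-mir-6531, touched the interval of H2AC6/H2BC4, and no other noncoding record of the annotation lay between the starts of a pair.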

How the data were processed

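The deposited file holds genome positions for each record, 1-based; per the file headers it belongs to ARS-UCD1.2, a cattle assembly. Per the series text, reindeer reads were mapped to cattle and the peak matrices went into Signac 1.2.1. Cell Ranger ATAC and Cell Ranger were used, per the submitters' processing notes, with versions not given in the sources used here. Where a record gave a symbol and then its identifier as names, the symbol was used. Pairs, lengths, exons and starts were computed in Python 3.11.15 with pandas 2.3.3. The pair finder was tested on simulated data. The members, groups and known pairs were chosen with earlier results of these data known. Named pairs are the known pairs, those with both partners in a group or otherwise the nearest in it, the extremes, and those nearest 1 kb; further pairs were named after their values were seen. Libraries were grouped by title; 6 of 7 groups hold 1 library. Alternatives changed the limit, naming, families, sequences, start definition, exon and start counting, upstream part and comparison group. Some pairs that the naming rule covers are not reported here, and no promoter sequence was used.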

Additional observations from a re-analysis of the deposited data

How the results depend on the processing

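No paired analysis was possible because no value here belongs to a sample. Over limits of 500 bases and 2 kb, unnamed genes, another start, family names kept, autosomes and X only and the alternatives added after seeing the data (overlapping starts, no olfactory receptors, no genes without a 5' UTR), the number of pairs ran from 421 to 739 and the median distance from 154.5 to 276 bases. A move under 1.5 times was taken as no change. By that measure the length ratio counted as unchanged with unnamed genes allowed. It moved from 0.712 to 0.986 there, so the length difference was nearly gone. The ratio of head-to-head to other genes turned in 3 places: median length 1.21 against other genes with a divergent neighbour within 10 kb, and mean exons 1.09 and mean starts 1.03 with unnamed genes allowed; the cause was not tested. The window share moved to 0% with 0 kb upstream, by construction, and to 46.3% with 5 kb. The number of groups above the share of all genes was 12 under each of the 3 limits. Of the 40 group shares under other limits, 36 moved by at most 1.5 times; the other 4 were in groups with 3 members or fewer. Depth limits nothing here, since no reads were counted.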

Other observations

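Pairs with overlapping 5' ends formed a set of their own: 187 pairs of named genes, with 26 overlapping by at most 100 bases and quartiles of 168 and 548.5 bases. Adding them to the 552 gave 739 pairs. Names of uncharacterised reading frames (those holding "orf") made up 2.09% of head-to-head genes (23 of 1100) and 1.26% of the others (206 of 16352). Another coding record touched the interval between the starts in 12 pairs.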
